A study of Mus musculus with 9 samples.

Results

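The comparison described here set neural stem cells (NSC) that had lost Nf1 against wild-type NSC of the same kind, on 6 of the series' 9 expression arrays. The genes described were the 9097 of 18193 measured genes whose mean log2 signal over the 9 arrays was 9.27 or more after rounding, the level of the median gene of the table. Just outside this limit lay Snx22 at 9.2668 and just inside it Plekhm2 at 9.267. Genes above the limit are called the brighter genes below, and genes under it the dim genes.

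All NSC came from around the third ventricle (TVZ in the labels) of the brains of C57BL/6 pups at postnatal day 1 whose genotype was Nf1flox/flox. The wild-type NSC, 3 arrays, had been given a control LacZ virus, and the Nf1-null NSC, 3 arrays, a Cre virus, whose recombinase cuts out the floxed stretch of Nf1. Both groups thus carried floxed alleles and a virus, and Cre and the loss of Nf1 came together and cannot be told apart. Cells were grown free-floating in low-attachment dishes in DMEM/Neurobasal medium with N2, B27, 20 ng/ml FGF and 20 ng/ml EGF, so both groups were measured under strong growth factor stimulation. The remaining 3 arrays hold cultured stem cells from optic gliomas of C57BL/6 mice, 3 months old, of the genotype Nf1+/-GFAP CKO, which enter here only as levels set beside the NSC. RNA was measured on Affymetrix Mouse Genome 430 2.0 arrays, on which a gene is read by one or several probe sets. The brightest probe set stood for each gene. A signal is the deposited linear intensity value, and differences are given on the scale of log2(signal + 1), always Nf1-null minus wild-type.

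Neurofibromin, the protein encoded by Nf1, is a GTPase-activating protein that switches Ras off. When it is lost, Ras stays active longer and passes signal to the Raf-Mek-Erk kinases and to the PI3K-Akt-mTOR branch, which drive cell cycle entry and growth. Active Erk also switches on its own brakes, among them the Sprouty proteins and the dual-specificity phosphatases. People with neurofibromatosis type 1 develop gliomas of the optic pathway, and cells lining the third ventricle have been proposed as a source of these tumours.

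Replicate numbers paired the NSC arrays. Deviations from the group mean across the brighter genes correlated at 0.643, 0.243 and 0.587 between wild-type and Nf1-null arrays of equal number, and at -0.541 to -0.017 between arrays of unequal number. The design text speaks of 3 independent cultures, but no label ties a replicate number to a culture, and the pairing was therefore read from the data. The p-values of the paired fit measure the spread of the differences among these 3 pairs, moderated across genes. Those without the pairing measure the spread between the arrays of a group, and 3 arrays per group limit the precision of both. Xist was bright in replicates 1 and 2 of both NSC groups, at 30974.5 or more, and at 587.7 and 385.6 in replicate 3 of the wild-type and the Nf1-null group. Eif2s3y, a gene of the Y chromosome, was at 4457.3 or more on all 6 NSC arrays, so replicates 1 and 2 held both transcripts. Median signals were 279.6 to 287.4 on wild-type arrays, 264.7 to 272.2 on Nf1-null arrays and 267.4 to 276.2 on glioma stem cell arrays, so the NSC groups did not overlap. The ratio of 3' to 5' Actb signal, a measure of RNA integrity and labelling, was 1.873 to 1.88 in wild-type NSC and 1.494 to 1.671 in Nf1-null NSC. The same ratio for Gapdh was 0.954 to 1.135 and 0.927 to 0.962 in these groups, which overlapped. The median signal and the Actb ratio thus differed between the same arrays as the genes below, and their part in the results was not tested.

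The targeted gene had lower signal in each pair. Nf1 was at 1139.5, 919.5 and 999.9 in wild-type NSC and 430.3, 645.8 and 577.0 in Nf1-null NSC, so the groups did not overlap. Its differences in pairs 1, 2 and 3 were -1.40, -0.51 and -0.79. In the paired fit with limma across the brighter genes this was 1.87-fold lower (log2 difference -0.90, SE 0.20, adjusted p = 0.0549, or 0.0686 without the pairing), which narrowly missed the threshold of an adjusted p under 0.05 (Benjamini-Hochberg). An exact two-sided sign-flip test of the 3 pairs gave p = 0.25, the smallest that 3 pairs allow. The other Nf1 probe sets had log2 differences of -0.60 and -1.40. The position of these probes on the floxed gene was not known here, and the signal that was left is no measure of intact transcript. Omg, which encodes a myelin glycoprotein of oligodendrocytes and lies inside the Nf1 gene, was at 2107.5, 3177.7 and 5676.6 in wild-type NSC and 962.3, 456.5 and 3208.7 in Nf1-null NSC. Its log2 difference of -1.58 did not pass (adjusted p = 0.0657), and its groups overlapped.

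Between the groups, 754 of the 9097 brighter genes differed at an adjusted p under 0.05 in the paired limma fit (8.29%). Of these 460 were higher in Nf1-null NSC (5.06%) and 294 were lower (3.23%), and these percentages are the background against which every list below can be read. More than 2-fold higher were 277 of them and more than 2-fold lower 162, while 53 and 25 differed more than 4-fold. The median change was 1.15 on the log2 scale among the higher genes and -1.07 among the lower, and the smallest change called was 0.53 in size. The median over all brighter genes was -0.04.

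Every called gene moved the same way in all 3 pairs, as did 62.2% of all brighter genes. Signals of the groups did not overlap for 613 of the 754, and for 31.9% of all brighter genes. Since the brightness limit used the mean over the 9 arrays, 103 of the genes called higher had a wild-type mean under it and 53 of those called lower an Nf1-null mean under it. For 31 and 10 of them the mean of the 6 NSC arrays was under it as well, and they entered through the glioma stem cells. Pair 2 moved furthest, with median differences of 1.49 and -1.39 for the genes called higher and lower, against 1.01 and -0.87 in pair 1 and 0.98 and -0.85 in pair 3. For 608 of the 754 genes the largest of the 3 differences was that of pair 2, as it was for 63.8% of all brighter genes. Nf1 itself differed least in pair 2. Other bright probe sets existed for 259 of the called genes, and 358 of these 365 probe sets had the sign of the probe set used (98.1%), as did 76.7% of the other bright probe sets of all brighter genes.

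How many genes passed rested on the pairing and on which pairs were in the fit. Without the pairing 51 genes passed, all among the 754, of which 29 were higher (0.319%) and 22 lower (0.242%). Without pair 1 or without pair 3 no gene passed in the paired limma fit, although 1976 and 2638 genes had an unadjusted p under 0.05, and without pair 2 there were 1372. With the mean of all probe sets of a gene, and with all 18193 genes tested without a mean-variance trend, 0 passed as well, with 2501 and 3111 genes at an unadjusted p under 0.05. The trend fit of all genes gave 1018, of which 663 were among the 754. With the mean of all probe sets 5 of the 754 genes had the opposite sign, and the other fits named here cannot turn the sign of a gene that moved the same way in all 3 pairs.

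**Figure D1:**
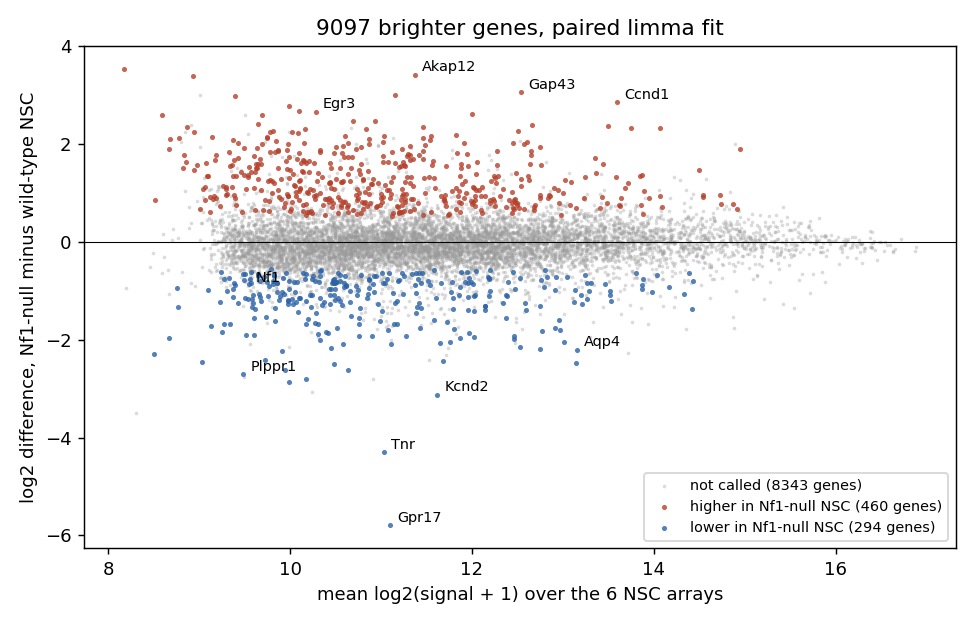
Log2 difference between Nf1-null and wild-type NSC in the paired fit (vertical axis) against the mean log2(signal + 1) over the 6 NSC arrays (horizontal axis), 1 point per brighter gene. The 460 genes called higher (red) and the 294 called lower (blue) spread over the whole range of signal, Gpr17 and Tnr lie lowest, and Nf1 lies among the genes not called (grey).

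Many genes that Erk switches on, including its own inhibitors, rose in Nf1-null NSC. Of 25 measured Erk targets and feedback regulators 18 were brighter genes, and 10 of the 18 rose while Epha4 alone fell. Their median difference was 1.17, and it was 0.73, 1.73 and 1.18 in the 3 pairs. Signals of 13 members were higher without overlap of the groups, as were those of 13.9% of all brighter genes. Without the pairing none of the 10 rises passed, and Epha4 still did.

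Dusp4, a nuclear phosphatase that inactivates Erk, was at 258.9, 286.9 and 182.5 in wild-type NSC and 1132.8, 4591.2 and 1304.7 in Nf1-null NSC. All Nf1-null arrays were far above the wild-type arrays, with replicate 2 the highest, a 7.91-fold rise (log2 difference 2.98, SE 0.36, adjusted p = 0.0336, or 0.0578 without the pairing). Spry4, a Sprouty protein that dampens receptor signalling to Ras, was at 958.8, 546.4 and 1090.5 in wild-type NSC and 3249.0, 8145.9 and 3736.3 in Nf1-null NSC, which was a 5.57-fold rise (log2 difference 2.48, SE 0.46, adjusted p = 0.0448, or 0.0509 without the pairing). Dusp6, the cytoplasmic Erk phosphatase, was at 7562.1, 3998.3 and 7494.4 in wild-type NSC and 21967.9, 48256.3 and 27715.8 in Nf1-null NSC, again with no overlap and the largest difference in pair 2 (log2 difference 2.34, SE 0.41, adjusted p = 0.0429). Spred2, of a family that brings neurofibromin to the membrane, rose 1.95-fold and the Ets-family factor gene Etv5 2.59-fold. Spry1, at 1.72, Spred1, at 0.62, and Spry2, at 0.66, did not pass (adjusted p = 0.0529, 0.0615 and 0.0917), and Dusp7 and Etv4 lay near 0, at 0.07 and -0.14. Il17rd, another inhibitor of this pathway, had a difference of -1.45 and did not pass (adjusted p = 0.0794).

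Several immediate early genes, which are transcribed within minutes of a growth signal without new protein, rose as well. Of 32 measured, 17 were brighter genes, and 9 of the 17 rose and none fell, with a median of 1.30 and pair medians of 0.66, 1.94 and 1.28. This list shares members with that of the Erk targets, so the counts of both lists are not independent. Egr3, a zinc-finger transcription factor, was at 391.1, 600.9 and 511.0 in wild-type NSC and 2337.3, 4229.4 and 3114.9 in Nf1-null NSC. The lowest Nf1-null array was well above the highest wild-type array, and the pair differences, 2.58, 2.81 and 2.60, were close to each other. This was a 6.34-fold rise with the smallest adjusted p among the 9097 genes (log2 difference 2.67, SE 0.12, adjusted p = 0.0223, or 0.0432 without the pairing). Ier3, a stress and growth factor response gene, was at 581.6, 862.5 and 1035.8 in wild-type NSC and 2865.2, 16241.9 and 5756.1 in Nf1-null NSC, with Nf1-null replicate 2 far above the others (log2 difference 3.00, SE 0.40, adjusted p = 0.0341, or 0.0655 without the pairing). Klf10, a transcription factor induced by TGF-beta, was at 3486.4, 2346.1 and 2749.6 in wild-type NSC and 11542.1, 25011.5 and 11452.5 in Nf1-null NSC and rose 5.28-fold (log2 difference 2.40, SE 0.34, adjusted p = 0.0362, or 0.0432 without the pairing).

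Egr1 was bright in both groups, at 14464.2, 12845.2 and 14374.7 in wild-type NSC and 25055.2, 55481.2 and 40744.8 in Nf1-null NSC, and rose 2.77-fold (log2 difference 1.47, SE 0.26, adjusted p = 0.0429). Klf6 rose 2.5-fold, Egr2 1.94-fold and the Fos partner gene Fosl2 2.46-fold. Jun had a difference of 0.93 and Myc of 0.59, and neither passed (adjusted p = 0.0551 and 0.0618). Ier5, at -0.08, and Btg2, at -0.30, did not follow. In the glioma stem cells Egr3 was at 2195.2, 898.5 and 569.3, which for replicates 2 and 3 is nearer to wild-type than to Nf1-null NSC, while Dusp4 was at 2047.6, 9213.0 and 13509.1 and Spry4 at 5747.8, 17828.8 and 19748.3, within or above the range of Nf1-null NSC.

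Genes upstream of Erk and of the PI3K branch had medians near that of all brighter genes, -0.04, of which 8.29% were called. Of 34 measured genes of Ras control and the Raf-Mek-Erk cascade 27 were brighter genes, with a median of 0.02, and Spred2 alone passed. Map2k1 and Map2k2, the Mek kinases, had differences of 0.26 and 0.12. Braf had one of -0.34, Nras of 0.15 and the nucleotide exchange factor gene Sos1 of -0.35. Of 31 PI3K-Akt-mTOR genes 27 were brighter, with a median of -0.09, and 2 rose. These were Eif4ebp1, a brake on translation that mTOR releases, at 1628.0, 7127.0 and 2007.1 in wild-type NSC and 3719.7, 32825.8 and 5116.6 in Nf1-null NSC, and the insulin receptor adaptor gene Irs2, at 508.6, 884.5 and 796.5 in wild-type NSC and 931.3, 2376.7 and 1263.8 in Nf1-null NSC. In Eif4ebp1 replicate 2 was the brightest of both groups, and the groups overlapped (log2 difference 1.58, SE 0.22, adjusted p = 0.0362). In Irs2 they did not overlap (log2 difference 0.99, SE 0.18, adjusted p = 0.0438).

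Growth factor receptors leaned lower, with a median of -0.44. Of 26 measured 15 were brighter genes, none rose and 2 fell. Kit, the receptor for stem cell factor, was at 1696.8, 2267.8 and 982.5 in wild-type NSC and 639.0, 670.7 and 639.4 in Nf1-null NSC (log2 difference -1.26, SE 0.24, adjusted p = 0.0453). Fgfr3, an FGF receptor that is bright in astrocytes and radial glia, was at 13223.8, 16693.7 and 14511.0 in wild-type NSC and 6116.4, 4591.9 and 8161.0 in Nf1-null NSC (log2 difference -1.27, SE 0.22, adjusted p = 0.0429). In both genes all wild-type arrays were above all Nf1-null arrays. Pdgfra, the PDGF receptor of oligodendrocyte precursors, was at 13362.9, 13123.6 and 8945.9 in wild-type NSC and 2673.0, 457.4 and 3304.6 in Nf1-null NSC, with no overlap. It missed the threshold, with uneven differences of -2.32, -4.84 and -1.44 in the pairs (adjusted p = 0.056). Egfr and Fgfr1, whose ligands were in the medium, had differences of -0.44 and 0.12 and did not pass (adjusted p = 0.233 and 0.482).

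Among 35 measured growth factor ligands 14 were brighter genes, of which 3 rose and 1 fell. Kitl, the ligand of the receptor Kit, rose 2.09-fold, with values of 7902.7, 6228.0 and 3274.8 in wild-type NSC and 12730.9, 13748.4 and 8435.9 in Nf1-null NSC. Vegfa, the main blood vessel growth factor, was at 791.7, 3407.9 and 5996.0 in wild-type NSC and 2424.7, 9623.0 and 9235.9 in Nf1-null NSC, where the groups overlapped and each Nf1-null array lay above its own partner (log2 difference 1.25, SE 0.22, adjusted p = 0.0434). Angpt2, a modulator of vessel stability, rose 6.84-fold. Tgfa, a ligand of Egfr, fell 3.56-fold, with values of 1743.6, 2223.3 and 4190.4 in wild-type NSC and 640.8, 403.3 and 1385.9 in Nf1-null NSC (log2 difference -1.83, SE 0.23, adjusted p = 0.0336, or 0.101 without the pairing). Hbegf, another Egfr ligand, moved the other way, at 1356.8, 1370.0 and 1491.5 in wild-type NSC and 3430.7, 9255.1 and 3036.5 in Nf1-null NSC, without passing (adjusted p = 0.0507).

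Several cyclins of the G1 phase, which with their kinases take a cell into DNA synthesis, rose. Of 25 measured G1 cyclins, kinases and E2F factors 22 were brighter genes, 5 rose and none fell, with a median of 0.57. Ccnd1, cyclin D1, was at 7567.9, 2065.3 and 6189.0 in wild-type NSC and 35118.6, 37073.2 and 28082.3 in Nf1-null NSC, a 7.23-fold rise with all Nf1-null arrays close together and wild-type replicate 2 the lowest (log2 difference 2.85, SE 0.42, adjusted p = 0.0377, or 0.0509 without the pairing). Ccnd2, cyclin D2, was at 22168.5, 10715.3 and 18032.0 in wild-type NSC and 56208.6, 78142.4 and 51730.5 in Nf1-null NSC and rose 3.76-fold (log2 difference 1.91, SE 0.32, adjusted p = 0.0421, or 0.0509 without the pairing). Ccne2, cyclin E2, was at 854.5, 337.7 and 341.4 in wild-type NSC and 3473.5, 1137.2 and 1174.6 in Nf1-null NSC. Wild-type replicate 1 stood above the other wild-type arrays, as did Nf1-null replicate 1 above its own, so the pair differences were nearly equal, at 2.02, 1.75 and 1.78 (log2 difference 1.85, SE 0.12, adjusted p = 0.026, or 0.109 without the pairing). Ccne1 rose 1.8-fold and the Rb relative gene Rbl1 1.96-fold. The partner kinase genes did not pass, with Cdk4 at 0.02, Cdk2 at 0.56 and Cdk6 at 1.06, the last a larger difference than those of Ccne1 and Rbl1. Ccnd3 was at 0.01. In the glioma stem cells Ccnd1 was higher still, at 51781.5, 82143.4 and 77493.0.

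Genes of DNA replication rose together. Of 47 measured 42 were brighter genes, and 30 of the 42 rose and none fell, with a median of 1.19 and pair medians of 1.10, 1.39 and 1.03. Only Fen1, at -0.18, was negative, and it did not pass. Without the pairing none of the 30 passed. The wild-type arrays differed among themselves, since the list median, relative to the wild-type mean, was 0.64, -0.38 and -0.20 on the wild-type arrays and 1.80, 1.06 and 0.69 on the Nf1-null arrays. Wild-type replicate 1 thus reached nearly the level of Nf1-null replicate 3. In bulk RNA, more cells in S phase and more RNA per cell cannot be told apart.

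Mcm6 and Mcm3 encode subunits of the helicase that opens DNA at replication origins. Many genes of this kind are E2F targets, so their RefSeq promoter sequences (GRCm38.p6, 250 bases before to 50 after the start, both genes on the minus strand) are shown, printed 5′ to 3′ along the gene. Capitals mark matches to the E2F-type motif searched, TTTCGCGC or TTTGGCGC on either strand. Mcm6 lies at chr1:128359656-128359955 with 3 matches, of which the first and second overlap on opposite strands, and Mcm3 at chr1:20820263-20820562 with 1. They were chosen as the called replication genes with the smallest adjusted p that hold the motif.
Mcm6: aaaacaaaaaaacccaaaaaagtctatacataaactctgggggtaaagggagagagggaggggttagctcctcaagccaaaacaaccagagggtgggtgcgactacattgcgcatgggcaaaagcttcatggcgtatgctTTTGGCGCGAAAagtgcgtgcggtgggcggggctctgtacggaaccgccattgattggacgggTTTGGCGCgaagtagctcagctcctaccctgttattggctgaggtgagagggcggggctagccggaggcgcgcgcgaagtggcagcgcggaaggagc
Mcm3: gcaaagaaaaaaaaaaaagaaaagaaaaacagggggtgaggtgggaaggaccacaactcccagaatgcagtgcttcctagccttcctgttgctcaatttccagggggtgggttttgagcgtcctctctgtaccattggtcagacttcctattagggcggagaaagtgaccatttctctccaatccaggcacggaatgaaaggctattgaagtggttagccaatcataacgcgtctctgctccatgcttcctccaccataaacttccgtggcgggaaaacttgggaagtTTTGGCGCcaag
Promoters were matched for 25 of the 30 replication genes that rose, and 9 of the 25 held the motif (36%). These shares count a gene as holding a motif if any of its matched promoters did. In the same way 2.0% of all brighter genes held it, 5.96% of the genes called higher and 0.866% of those called lower. Of all RefSeq promoters listed, counted singly and so not by gene, 0.813% held it. The CCAAT box, searched as CCAAT on either strand, was in 64.0% of the same 25, in 43.6% of brighter genes and in 37.4% of all promoters. The Ets-type motif, searched as CCGGAAGT on either strand, was in 12%, 10.2% and 3.89% of these. Matches of different motifs can overlap, and a match describes the sequence and is not a bound site.

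Mcm6 was at 2918.1, 958.7 and 770.1 in wild-type NSC and 10129.4, 4438.8 and 2812.3 in Nf1-null NSC. Wild-type replicate 1 was above Nf1-null replicate 3, yet the pair differences were nearly the same, at 1.79, 2.21 and 1.87 (log2 difference 1.96, SE 0.13, adjusted p = 0.026, or 0.126 without the pairing). Mcm3 was at 1817.8, 433.0 and 702.6 in wild-type NSC and 6987.2, 3698.2 and 2616.8 in Nf1-null NSC, with no overlap and a 4.96-fold rise (log2 difference 2.31, SE 0.27, adjusted p = 0.0336, or 0.0889 without the pairing). Cdt1, which loads the helicase onto origins, was at 1469.7, 454.7 and 514.4 in wild-type NSC and 5810.0, 4416.0 and 2346.2 in Nf1-null NSC and rose 5.59-fold (log2 difference 2.48, SE 0.27, adjusted p = 0.0336). Gmnn, which encodes the Cdt1 inhibitor geminin, rose as well, 3.6-fold. Mcm5 rose 4.5-fold, the chromatin remodeller gene Hells 4.47-fold, and Rrm2, the S-phase subunit of ribonucleotide reductase, 4.82-fold. Timeless, a fork protection gene, rose 3.08-fold, and Fam111a, which encodes a protease that acts at replication forks, 4.72-fold, with values of 978.3, 361.9 and 355.4 in wild-type NSC and 3667.2, 2052.2 and 1769.9 in Nf1-null NSC. Tk1, thymidine kinase, was at 786.3, 27.5 and 270.8 in wild-type NSC and 3067.7, 919.8 and 1115.9 in Nf1-null NSC and did not pass, with pair differences of 1.96, 5.01 and 2.04 (adjusted p = 0.052).

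Mitosis genes showed the largest median of the lists with 10 or more brighter members. Of 52 measured 49 were brighter genes, all 49 were positive, 39 rose and none fell, with a median of 1.75. The pair medians were 1.11, 2.58 and 1.45, so pair 2 exceeded the others by more than it did for replication. On the wild-type arrays the list stood at 1.25, -1.06 and -0.18, and on the Nf1-null arrays at 2.42, 1.54 and 1.25. Wild-type replicate 1 and Nf1-null replicate 3 were therefore at the same level, and 24 of the 49 were higher without overlap of the groups, against 13.9% of all brighter genes. Without the pairing none passed.

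Aurkb, the kinase of the chromosomal passenger complex, was at 944.9, 170.6 and 308.7 in wild-type NSC and 2267.1, 956.4 and 1264.1 in Nf1-null NSC and rose 3.79-fold (log2 difference 1.92, SE 0.25, adjusted p = 0.0336, or 0.128 without the pairing). Its partner Incenp rose 2.92-fold, and Cenpm, a centromere protein, rose 3.38-fold with pair differences of 1.57, 1.95 and 1.75. Mad2l1, a spindle checkpoint protein, was at 2835.2, 834.3 and 1263.2 in wild-type NSC and 8499.7, 5008.6 and 4310.3 in Nf1-null NSC (log2 difference 1.98, SE 0.22, adjusted p = 0.0336). Racgap1, needed for cytokinesis, rose 3.7-fold and the spindle protein gene Nusap1 2.99-fold. Mki67, the proliferation antigen Ki-67, was at 8970.8, 887.0 and 2718.0 in wild-type NSC and 19171.7, 8110.2 and 9276.7 in Nf1-null NSC and rose 4.05-fold, with wild-type replicate 1 above 1 of the Nf1-null arrays (log2 difference 2.02, SE 0.40, adjusted p = 0.0496). Of the mitosis genes that rose, promoters of 33 were matched, of which 6.06% held the E2F-type motif and 72.7% a CCAAT box.

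**Figure D2:**
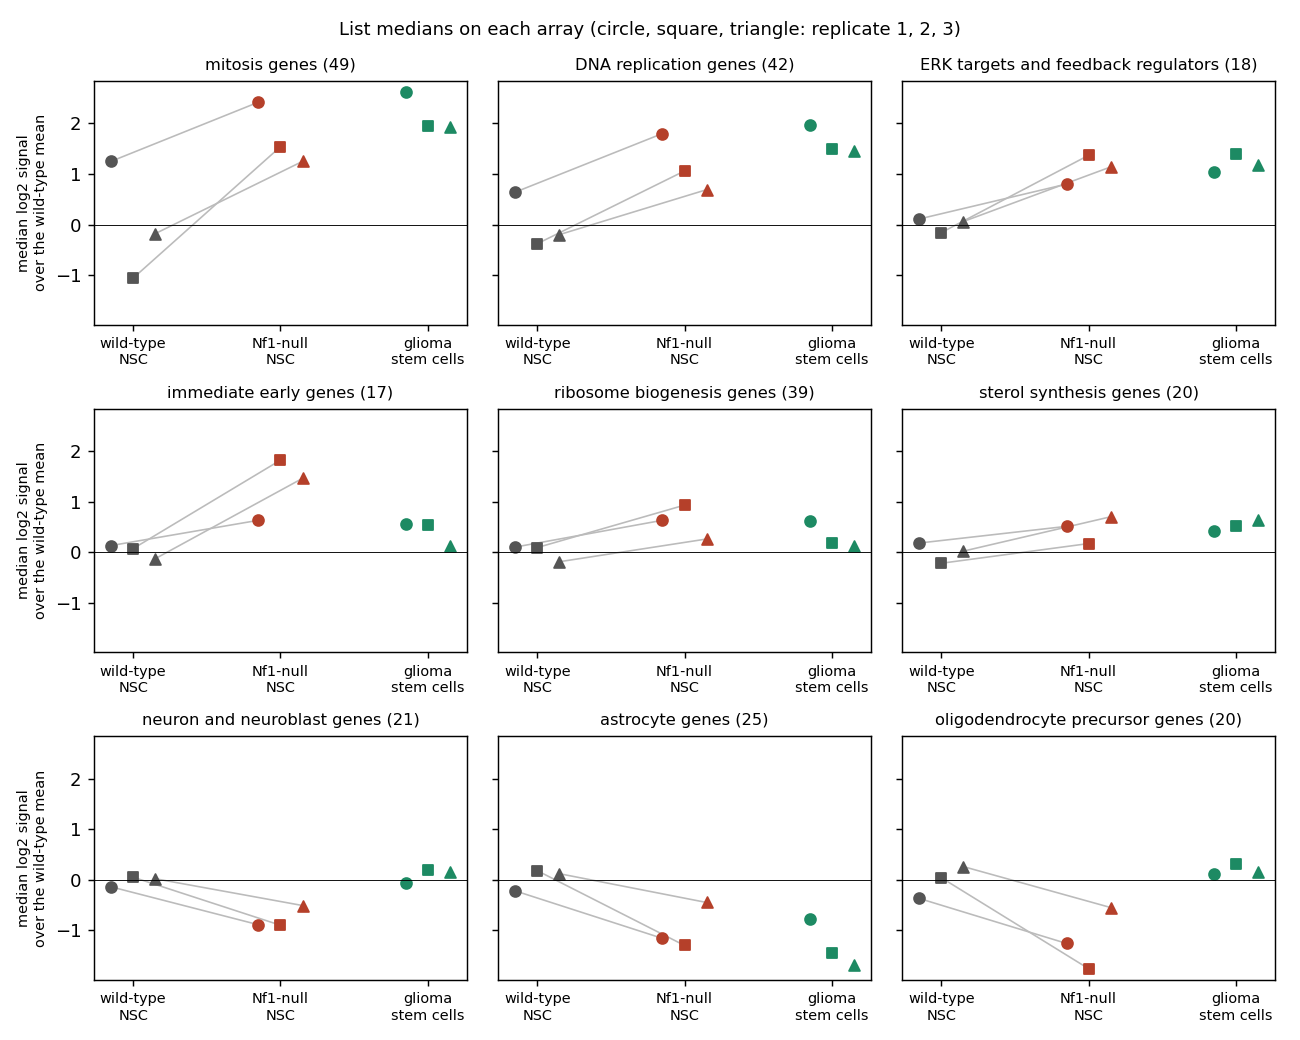
Median log2 signal of the brighter members of 9 gene lists, relative to the wild-type mean (vertical axis), on each array of wild-type NSC (grey), Nf1-null NSC (red) and glioma stem cells (green). Lines join arrays of equal replicate number, and each runs up in the upper 6 panels and down in the lower 3, while wild-type replicate 1 for mitosis genes, at 1.25, is as high as Nf1-null replicate 3.

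Calls among cell cycle inhibitors and p53 targets can be read against the 5.06% of all brighter genes that were called higher. Of 18 inhibitors, all brighter genes, Cdkn1a alone rose, and Cdkn1b and Cdkn2a had differences of -0.03 and 0.44. Cdkn1a, the p21 inhibitor of cyclin-dependent kinases, was at 4489.7, 5472.9 and 10829.4 in wild-type NSC and 12944.8, 21392.6 and 18296.5 in Nf1-null NSC, with wild-type replicate 3 the highest of its group (log2 difference 1.42, SE 0.25, adjusted p = 0.0429, or 0.0891 without the pairing). Of 26 measured p53 targets 22 were brighter, with a median of 0.14, and 3 rose: Cdkn1a, Plk2 (3.63-fold) and Ephx1 (1.68-fold). Mdm2, at 0.26, and Bbc3, at 0.11, did not pass (adjusted p = 0.233 and 0.497). Of 41 measured chromatin genes 34 were brighter and 5 rose, namely Hells, Hmgb2 (2.32-fold), H2az1, H2ax (1.87-fold) and Dnmt1 (1.74-fold), of which several are known to peak in S phase. Ezh2 had a difference of 0.43 and Dnmt3a of -0.27.

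Of 42 measured genes of ribosome production 39 were brighter, 10 of which rose and none fell. Of the 39, 37 were positive, with differences from -0.23 to 1.08, a median of 0.63 and pair medians of 0.50, 0.83 and 0.45. Fbl, the nucleolar methyltransferase fibrillarin, was at 7307.1, 8559.9 and 5615.9 in wild-type NSC and 14357.4, 17230.3 and 9158.3 in Nf1-null NSC and rose 1.86-fold (log2 difference 0.90, SE 0.12, adjusted p = 0.0355, or 0.118 without the pairing). Dkc1, which modifies ribosomal RNA, rose 1.81-fold, Nop56 1.78-fold and Rrp1b 1.67-fold. Ebna1bp2 rose 1.77-fold by its brightest probe set, and the mean of its probe sets had the opposite sign, at -0.31. Aminoacyl-tRNA synthetases, of which 19 of 19 measured were brighter, were all positive with a median of 0.45, and none passed. Their pair medians were 0.17, 1.01 and 0.27, so this difference lay mostly in pair 2. Proteasome subunits, at a median of 0.18 over 30, and respiratory chain subunits, at 0.01 over 39, had no member that passed.

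Nucleotide synthesis had 7 rises and no fall among 30 brighter genes of 31 measured. Besides Rrm2, Rrm1 and Dut these were Dctd, which makes dUMP (2.17-fold), Hprt, the purine salvage enzyme (2.61-fold), and the mitochondrial folate enzyme genes Mthfd2 and Mthfd1l. The list shares members with that of DNA replication, so the counts of both are not independent. Mthfd2 was at 462.1, 1935.2 and 460.9 in wild-type NSC and 1153.7, 12963.4 and 1545.5 in Nf1-null NSC, and replicate 2 was several times the others in both groups (log2 difference 1.94, SE 0.28, adjusted p = 0.0376). The arginine transporter gene Slc7a1 followed the same layout, at 2277.2, 12174.8 and 2447.8 in wild-type NSC and 4814.9, 43872.1 and 4535.9 in Nf1-null NSC (log2 difference 1.27, SE 0.21, adjusted p = 0.0421). Eif4ebp1 and the tRNA synthetases, described above, likewise stood highest in replicate 2 of both groups.

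Of 23 measured glycolysis genes 21 were brighter, 6 rose and 1 fell, with a median of 0.46. Hk2, the inducible hexokinase, was at 681.1, 1709.5 and 2306.0 in wild-type NSC and 1676.8, 7439.6 and 5536.0 in Nf1-null NSC (log2 difference 1.56, SE 0.21, adjusted p = 0.0336). Slc2a3, a glucose transporter, was at 2338.7, 3519.4 and 5113.8 in wild-type NSC and 5077.3, 19312.3 and 17356.1 in Nf1-null NSC and rose 3.43-fold, and Ldha, lactate dehydrogenase A, rose 1.94-fold. In these genes replicate 1 was the dimmest of both groups, and each Nf1-null array was above its partner. Adm, adrenomedullin, which like Vegfa is induced in hypoxia, had the same layout, at 702.2, 1544.0 and 2269.4 in wild-type NSC and 2119.0, 6097.1 and 7530.6 in Nf1-null NSC, with pair differences of 1.59, 1.98 and 1.73 (log2 difference 1.77, SE 0.13, adjusted p = 0.026, or 0.131 without the pairing). Ldhb and Aldoc, the isoforms typical of astrocytes and neurons, had differences of -0.89 and -1.16 that did not pass (adjusted p = 0.0563 and 0.0876), while Pfkfb2 fell 1.56-fold. Of 20 sterol synthesis genes, all brighter, 4 rose (Hsd17b7, Fdps, Cyp51 and Stard4, 1.68-fold to 1.88-fold), and 16 were positive.

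**Figure D3:**
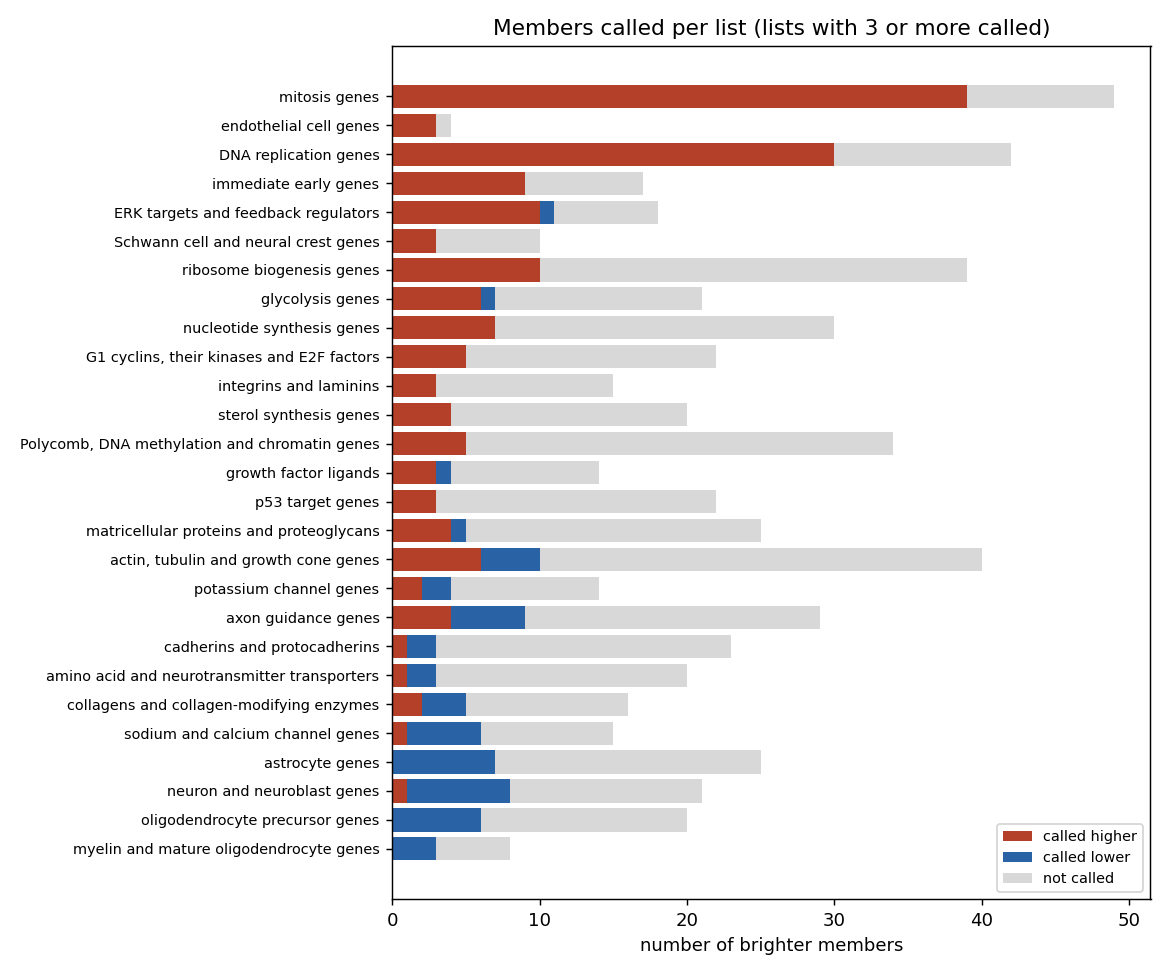
Number of brighter members (horizontal axis) called higher (red), called lower (blue) or not called (grey) in each gene list with 3 or more called members. Mitosis genes have 39 of 49 and DNA replication genes 30 of 42 called higher, and the lists of astrocytes, oligodendrocyte precursors and myelin have calls in the lower direction alone.

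Several genes that define neural stem cells in culture were bright in both groups. Sox2, the stem cell transcription factor, was at 43917.8, 49793.5 and 42161.7 in wild-type NSC and 39495.4, 39814.9 and 36994.0 in Nf1-null NSC. All Nf1-null arrays of Sox2 were thus below all wild-type arrays, but it did not pass. Vim was at 90628.9, 90495.8 and 59198.9 in wild-type NSC and 93741.1, 104710.2 and 80058.0 in Nf1-null NSC. Nes, nestin, was at 5325.5, 3122.2 and 3204.9 in wild-type NSC and 7019.2, 9490.2 and 3479.9 in Nf1-null NSC and did not pass (log2 0.71, adjusted p = 0.169). Of 27 measured stem cell and radial glia genes 23 were brighter, 14 of which were negative, with a median of -0.22. Tnc alone rose and none fell. The dim genes of this list were Gfap, Nr2e1, Thbs4 and Rax. Tnc, tenascin C of the stem cell niche, was at 7143.8, 7590.8 and 2414.3 in wild-type NSC and 19723.0, 54041.5 and 16718.6 in Nf1-null NSC, a 5.14-fold rise with wild-type replicate 3 the lowest (log2 difference 2.36, SE 0.30, adjusted p = 0.0336, or 0.0889 without the pairing). Hmga2, a chromatin protein of fetal stem cells, was at 1054.5, 629.6 and 920.0 in wild-type NSC and 2731.1, 7736.2 and 1853.3 in Nf1-null NSC and missed the threshold (adjusted p = 0.0688). Hes5, a Notch target, was at 10336.5, 8940.2 and 1411.9 in wild-type NSC and 2853.3, 229.7 and 592.4 in Nf1-null NSC, where wild-type replicate 3 was below the highest Nf1-null array (adjusted p = 0.0787).

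Part of the genes of more differentiated neural cells fell. The largest falls came from the oligodendrocyte lineage, of whose 25 measured precursor genes 20 were brighter, 6 fell and none rose, with a median of -1.01. Gpr17, a receptor of precursors that are about to differentiate, was at 9899.8, 14301.6 and 30597.9 in wild-type NSC and 488.8, 20.1 and 2432.1 in Nf1-null NSC. The Nf1-null replicate 2 signal of 20.1 is at the level of dim probe sets, so the 55.6-fold difference depends on the pseudocount (log2 difference -5.80, SE 1.14, adjusted p = 0.0485, or 0.1 without the pairing). Tnr, tenascin R, was at 3279.1, 8796.9 and 27735.0 in wild-type NSC and 339.2, 130.5 and 2311.9 in Nf1-null NSC, so that the levels ranged widely within each group while every pair fell, by -3.27, -6.06 and -3.58 (log2 difference -4.31, SE 0.56, adjusted p = 0.0336, or 0.0988 without the pairing). Myt1, a zinc-finger factor of the lineage, was at 3146.5, 3976.3 and 3129.2 in wild-type NSC and 835.3, 285.0 and 918.7 in Nf1-null NSC and fell 5.63-fold (log2 difference -2.49, SE 0.42, adjusted p = 0.0425, or 0.0578 without the pairing). Lhfpl3 and Sox6 fell 3.97-fold and 3.39-fold, and Dscam 2.08-fold.

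The transcription factors that specify this lineage did not follow. Olig1 was at 72618.2, 74070.7 and 70189.1 in wild-type NSC and 61379.5, 61580.0 and 72997.1 in Nf1-null NSC and Olig2 at 23759.6, 26541.2 and 21358.3 in wild-type NSC and 21742.2, 22816.2 and 24846.2 in Nf1-null NSC, with overlapping groups and differences of -0.15 and -0.04 (adjusted p = 0.427 and 0.845). Sox10, which acts later, had a difference of -1.85 (adjusted p = 0.0807). Of 22 measured myelin genes 8 were brighter and 3 of these fell, Ugt8a, which makes the myelin lipid galactosylceramide, 6.96-fold, Bcas1 4.13-fold and Sirt2 3.02-fold. Bcas1, a marker of early myelinating cells, was at 10160.5, 15004.2 and 31052.0 in wild-type NSC and 3648.7, 2966.3 and 6211.2 in Nf1-null NSC (log2 difference -2.05, SE 0.21, adjusted p = 0.0336, or 0.0722 without the pairing). Mbp, myelin basic protein, was at 2008.8, 495.4 and 6599.4 in wild-type NSC and 376.5, 189.2 and 297.4 in Nf1-null NSC, very uneven among wild-type arrays, and did not pass (adjusted p = 0.0518). In the glioma stem cells Bcas1 was at 25472.1, 28380.1 and 28301.6 and Lhfpl3 at 12121.6, 18185.1 and 17537.2, within or above the range of wild-type NSC, while Gpr17 was at 495.4, 1066.3 and 2326.0.

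Astrocyte genes were lower in part. Of 28 measured 25 were brighter genes, 23 were negative, and 7 fell and none rose, with a median of -1.05 and pair medians of -0.72, -1.52 and -0.50. Groups did not overlap, in the lower direction, for 14 of the 25, as for 18% of all brighter genes. Id4, which blocks the DNA binding of helix-loop-helix partners, was at 12513.7, 13978.6 and 11055.3 in wild-type NSC and 4235.1, 1879.9 and 2733.2 in Nf1-null NSC and fell 4.46-fold (log2 difference -2.16, SE 0.27, adjusted p = 0.0336, or 0.0432 without the pairing). Aqp4, the water channel of astrocyte end-feet, was at 21585.0, 15425.9 and 22502.1 in wild-type NSC and 8138.6, 1734.0 and 5382.0 in Nf1-null NSC (log2 difference -2.21, SE 0.34, adjusted p = 0.0391, or 0.0868 without the pairing). Clu, clusterin, fell 2.14-fold and the bicarbonate transporter gene Slc4a4 2.08-fold. Aldh1l1, a folate enzyme that marks astrocytes broadly, was bright in both groups, at 32418.4, 33105.9 and 43185.6 in wild-type NSC and 31920.6, 25833.2 and 40852.5 in Nf1-null NSC (adjusted p = 0.42). Gfap was a dim gene, at 3291.6, 1004.2 and 923.1 in wild-type NSC and 3053.0, 200.6 and 158.5 in Nf1-null NSC, with replicate 1 the highest in both.

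Neuronal genes also leaned lower, and Gap43 alone was called higher. Of 39 measured neuron and neuroblast genes 21 were brighter, of which 18 were negative and 3 positive. Of the 21, 7 fell and 1 rose, with a median of -0.72. Snap91, a synaptic vesicle coat protein, was at 2486.3, 3355.6 and 3095.2 in wild-type NSC and 762.1, 493.5 and 750.8 in Nf1-null NSC and fell 4.5-fold (log2 difference -2.17, SE 0.22, adjusted p = 0.0336, or 0.0432 without the pairing). Stmn3, a microtubule regulator, was at 11929.3, 13748.2 and 12179.7 in wild-type NSC and 6636.7, 6198.1 and 6273.5 in Nf1-null NSC, even within each group, and fell 1.98-fold (log2 difference -0.98, SE 0.12, adjusted p = 0.0336, or 0.0432 without the pairing). Tubb3, the neuronal tubulin, fell 1.97-fold and the RNA-binding protein gene Elavl3 1.78-fold. Dcx, doublecortin of young neurons, was at 889.8, 2572.4 and 1538.8 in wild-type NSC and 542.9, 397.6 and 520.8 in Nf1-null NSC and did not pass (adjusted p = 0.0562). Gap43, a growth cone protein that is also made by glial precursors and Schwann cells, was at 2684.3, 1581.8 and 2075.2 in wild-type NSC and 16438.6, 31630.4 and 9897.4 in Nf1-null NSC, an 8.36-fold rise (log2 difference 3.06, SE 0.41, adjusted p = 0.0349, or 0.0432 without the pairing).

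Notch signalling, which keeps neural precursors undifferentiated, had 2 falls among 21 brighter genes of 28 measured. Dll3, an atypical Notch ligand, was at 4052.5, 3749.2 and 3393.3 in wild-type NSC and 1175.0, 517.8 and 1519.9 in Nf1-null NSC and fell 3.82-fold (log2 difference -1.93, SE 0.33, adjusted p = 0.0425). Notch2 was at 6857.7, 6052.7 and 5051.7 in wild-type NSC and 3918.1, 3566.2 and 3341.3 in Nf1-null NSC, a small fall that was even across pairs (log2 difference -0.72, SE 0.12, adjusted p = 0.0403). Notch1 had a difference of -0.23 and Hes1 of 0.08. Among factors of the third ventricle and diencephalon 11 of 38 measured were brighter. Of the 11, 10 were negative, with a list median of -0.63 and pair medians of -0.29, -1.15 and -0.65, and none of these passed. The exception, Emx2, alone passed, at 1676.6, 2370.0 and 2202.3 in wild-type NSC and 2638.6, 4644.7 and 3783.1 in Nf1-null NSC (log2 difference 0.80, SE 0.12, adjusted p = 0.0391).

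**Figure D4:**
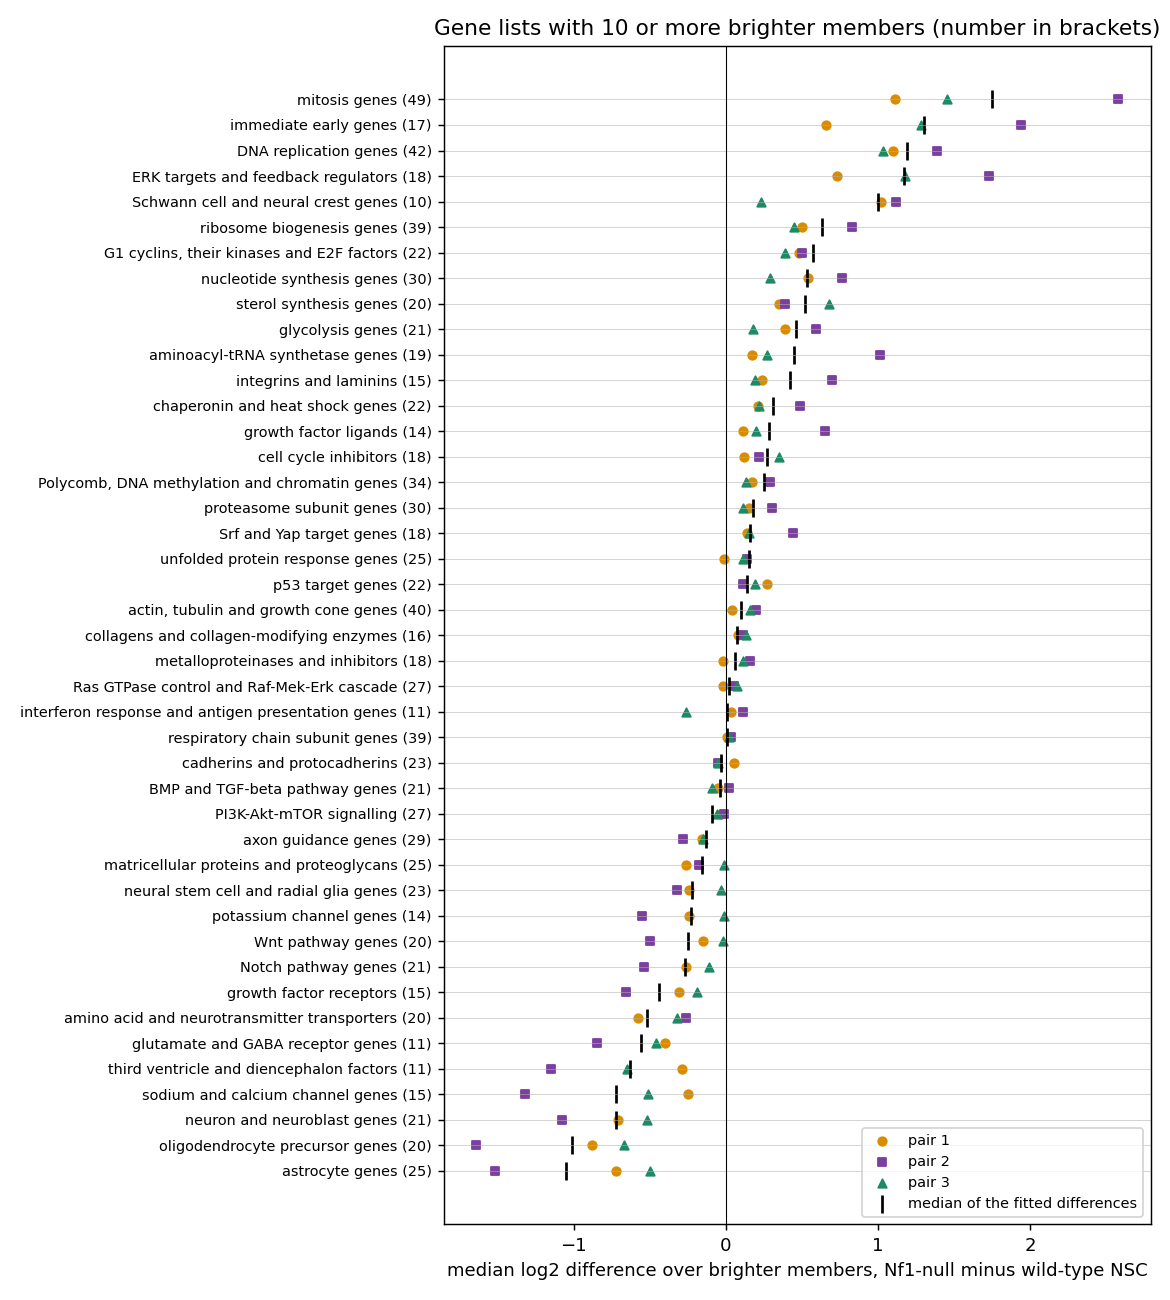
Median log2 difference, Nf1-null minus wild-type NSC, over the brighter members of each gene list with 10 or more of them (horizontal axis), in pair 1, 2 and 3 (symbols) and in the fit (bar). Mitosis genes lie highest at 1.75 and astrocyte genes lowest at -1.05, and pair 2 (squares) lies farthest from 0 in most lists at either end.

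Several genes better known from blood vessels were among the largest rises. Cd93, a transmembrane receptor of endothelial cells, was at 425.9, 75.5 and 103.6 in wild-type NSC and 2397.2, 1978.4 and 851.1 in Nf1-null NSC and rose 10.6-fold (log2 difference 3.40, SE 0.43, adjusted p = 0.0336, or 0.0655 without the pairing). Plvap, which forms the diaphragms of endothelial fenestrae, was at 355.6, 391.6 and 580.2 in wild-type NSC and 1859.4, 4559.6 and 2560.9 in Nf1-null NSC (log2 difference 2.69, SE 0.29, adjusted p = 0.0336, or 0.0432 without the pairing). Angpt2 was at 275.2, 471.1 and 452.3 in wild-type NSC and 1629.3, 6276.0 and 1850.8 in Nf1-null NSC (log2 difference 2.77, SE 0.33, adjusted p = 0.0336, or 0.0636 without the pairing). In each of the 3 all Nf1-null arrays lay above all wild-type arrays. They were named among the 15 largest rises, for which this was a condition, and it held for 13.9% of all brighter genes. On 2 of the wild-type arrays Cd93 was as dim as the defining markers given next, so its fold is set against very dim signals, and its mean over the 6 NSC arrays, 8.94, was under the brightness limit. These were 3 of the 4 brighter members of 28 measured endothelial genes, and the fourth, Ramp2, was at 0.07.

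The defining markers of endothelial cells were dim in both groups. Pecam1 was at 189.8, 19.7 and 33.0 in wild-type NSC and 14.7, 75.4 and 83.7 in Nf1-null NSC. Cdh5 stood at 66.4, 103.5 and 61.7 against 40.3, 123.6 and 91.0, and Cldn5 at 35.4, 40.2 and 76.9 against 43.2, 38.8 and 79.5. Signals of all 24 dim members summed to between 2728.8 and 2981.0 on wild-type arrays and between 3020.9 and 5173.2 on Nf1-null arrays. Esm1, an endothelial tip cell gene, was among them, at 9.2, 16.9 and 1.7 against 269.0, 1619.7 and 65.0.

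Pf4, platelet factor 4, was at 175.1, 180.0 and 119.8 in wild-type NSC and 690.4, 1570.9 and 799.0 in Nf1-null NSC (log2 difference 2.61, SE 0.24, adjusted p = 0.0336, or 0.0432 without the pairing). Its mean over the 6 NSC arrays, 8.60, was under the brightness limit, which it passed through the glioma stem cells, at 959.9, 2902.3 and 5114.2. It was the only brighter gene of its list of microglia, macrophage and blood cell genes, whose other members summed to between 3578.1 and 4308.8 on wild-type arrays and between 3395.2 and 3903.3 on Nf1-null arrays. The leukocyte marker Ptprc was at 67.3, 31.9 and 53.6 against 4.4, 40.4 and 5.1. Of 23 measured Schwann cell and neural crest genes 10 were brighter and 3 rose, Gap43, Egr2 and Pou3f1. Pou3f1, a POU factor of Schwann cells and neural precursors, was at 1516.7, 757.4 and 1668.1 in wild-type NSC and 3593.5, 5903.9 and 4755.6 in Nf1-null NSC (log2 difference 1.91, SE 0.35, adjusted p = 0.0448). Pmp22 and Cdh19 had differences of 1.12 and 1.08 that did not pass (adjusted p = 0.0518 and 0.0551), and Sox10 was at -1.85. Fibroblast genes, 7 brighter of 33 measured, and ependymal genes, 5 of 33, had no call.

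Among ion channel genes more fell than rose. Of 35 measured genes of sodium and calcium channels, calcium release and calcium-dependent kinases 15 were brighter, 5 fell and 1 rose. The 1 that rose, Camk2b, and Camk2d among those that fell encode kinases, not channels. Nalcn, the sodium leak channel, was at 1382.4, 2970.9 and 3502.1 in wild-type NSC and 363.6, 239.2 and 710.8 in Nf1-null NSC and fell 6.14-fold (log2 difference -2.62, SE 0.34, adjusted p = 0.0336, or 0.0608 without the pairing). Scn8a, a voltage-gated sodium channel, was at 1710.2, 2595.6 and 2358.5 in wild-type NSC and 516.9, 784.3 and 838.1 in Nf1-null NSC, a fall of nearly equal size in each pair, -1.72, -1.73 and -1.49 (log2 difference -1.65, SE 0.12, adjusted p = 0.026, or 0.0493 without the pairing). Ryr3, a calcium release channel, fell 6.17-fold and Camk2d, a calcium-dependent kinase, 1.88-fold, whereas its relative Camk2b rose 4.26-fold, with values of 1484.8, 990.5 and 2008.1 in wild-type NSC and 5595.2, 6607.6 and 6193.1 in Nf1-null NSC. Among 14 brighter potassium channel genes of 37 measured, 2 fell and 2 rose. Kcnd2, an A-type channel, was at 9523.3, 10442.7 and 8100.2 in wild-type NSC and 2204.6, 350.9 and 1557.6 in Nf1-null NSC and fell 8.73-fold (log2 difference -3.13, SE 0.56, adjusted p = 0.0438, or 0.0655 without the pairing), and Kcnn2 fell 4.17-fold. Kcnc1 rose 2.29-fold and Kcnip1, whose product binds channels of the Kcnd type, 2.31-fold.

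Of 31 measured glutamate and GABA receptor genes 11 were brighter, 2 fell and none rose. Gabbr1, a subunit of the metabotropic GABA receptor, was at 12059.3, 17849.5 and 14511.8 in wild-type NSC and 4369.3, 1666.9 and 4551.8 in Nf1-null NSC and fell 4.55-fold (log2 difference -2.19, SE 0.40, adjusted p = 0.0448, or 0.0598 without the pairing). Slc1a1, a glutamate transporter, was at 1435.2, 3318.7 and 4314.6 in wild-type NSC and 396.8, 212.8 and 630.2 in Nf1-null NSC, a 7.26-fold fall (log2 difference -2.86, SE 0.40, adjusted p = 0.0355, or 0.0585 without the pairing). Slc7a2 fell 2.21-fold while Slc7a1, which carries the same cationic amino acids, rose 2.42-fold. All Nf1-null arrays were below all wild-type arrays for the genes of these paragraphs that fell. For those named among the 15 largest falls this was a condition of the choice, and it held for 18% of all brighter genes. Of 31 measured transporter genes 20 were brighter, 2 fell and 1 rose.

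**Figure D5:**
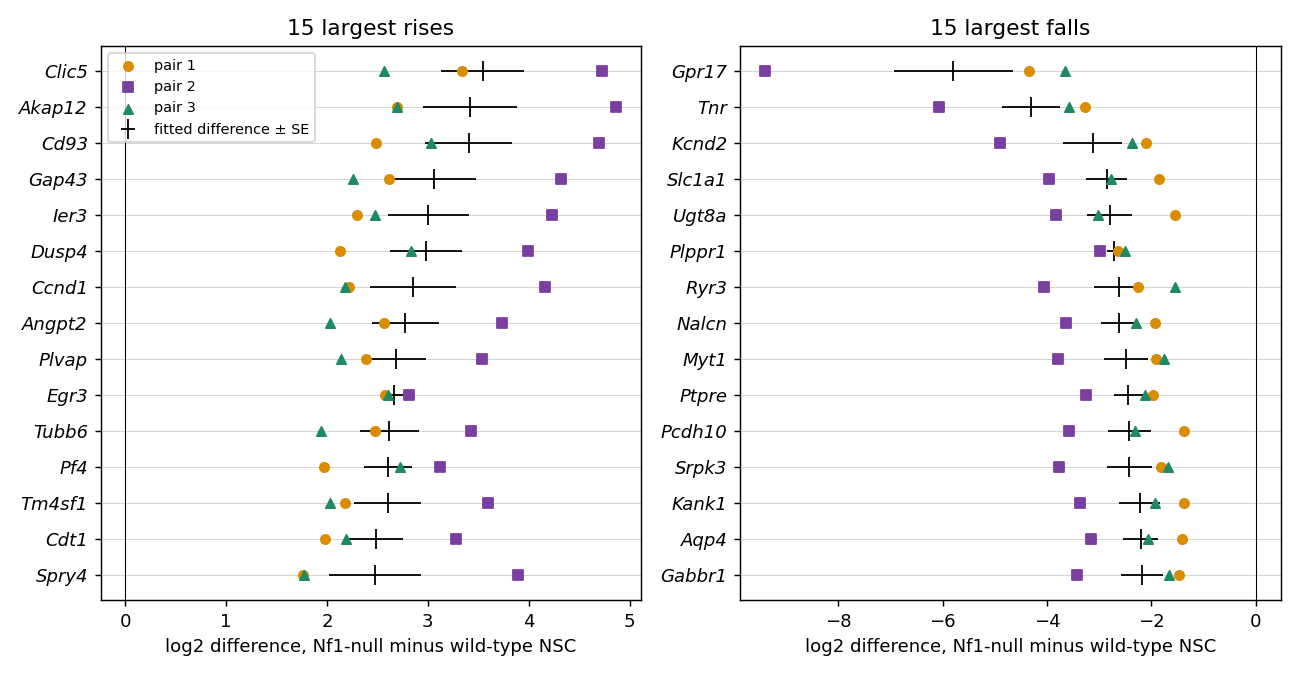
Log2 difference, Nf1-null minus wild-type NSC (horizontal axis), in pairs 1, 2 and 3 (symbols) and in the fit with its standard error (cross), for the 15 largest rises (left) and the 15 largest falls (right) among called genes whose groups did not overlap. Pair 2 (squares) is the farthest from 0 for each of these genes, and for Egr3 and Plppr1 the 3 pairs lie close together.

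Cytoskeletal and growth cone genes moved in both directions. Of 47 measured 40 were brighter, 6 rose and 4 fell. Akap12, a scaffold for protein kinases A and C, was at 1184.4, 593.2 and 754.7 in wild-type NSC and 7686.4, 17337.8 and 4897.4 in Nf1-null NSC and rose 10.7-fold (log2 difference 3.42, SE 0.47, adjusted p = 0.0355, or 0.0432 without the pairing). Tubb6, a widely expressed tubulin, was at 1877.4, 1171.5 and 2049.9 in wild-type NSC and 10434.2, 12619.3 and 7885.8 in Nf1-null NSC and rose 6.13-fold (log2 difference 2.62, SE 0.29, adjusted p = 0.0336, or 0.0432 without the pairing), while the neuronal Tubb3 fell. Plppr1, a growth cone membrane protein, was at 1327.3, 2596.0 and 1787.5 in wild-type NSC and 212.7, 327.8 and 312.8 in Nf1-null NSC, a 6.54-fold fall that was alike in all pairs (log2 difference -2.71, SE 0.14, adjusted p = 0.0242, or 0.0432 without the pairing). Actn1, an actin cross-linker, fell 1.71-fold. Actb itself had a difference of -0.03.

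Matrix and adhesion genes that rose included Fn1 (2.32-fold), the hyaluronan receptor gene Cd44 (2.21-fold), Sdc1 (2.1-fold) and the integrin and laminin genes Itga8, Itgb1 (1.74-fold) and Lamb1 (2.06-fold). Itga8 was at 159.2, 219.8 and 216.6 in wild-type NSC and 570.9, 1122.1 and 963.4 in Nf1-null NSC (log2 difference 2.11, SE 0.14, adjusted p = 0.026, or 0.0432 without the pairing), and in the glioma stem cells at 3199.2, 18747.2 and 17781.0. Of 25 brighter matricellular genes 4 rose and Tnr fell, of 46 measured. Of 16 brighter collagen genes of 40 measured, 3 fell and 2 rose. Col9a1, a fibril-associated collagen, was at 1201.1, 1097.7 and 2584.8 in wild-type NSC and 376.8, 282.3 and 602.1 in Nf1-null NSC and fell 3.75-fold (log2 difference -1.91, SE 0.13, adjusted p = 0.026, or 0.0686 without the pairing), and Col27a1 fell 2.21-fold. The protocadherin genes Pcdh10 and Pcdh17 fell 5.38-fold and 2.45-fold, with values of 6952.1, 7788.1 and 8213.9 in wild-type NSC and 2662.2, 652.2 and 1642.4 in Nf1-null NSC for Pcdh10.

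Axon guidance genes had 5 falls and 4 rises among 29 brighter genes of 56 measured. Epha4, an ephrin receptor, was at 1793.3, 1947.7 and 2495.2 in wild-type NSC and 626.5, 603.0 and 706.8 in Nf1-null NSC, narrow within each group, and fell 3.19-fold (log2 difference -1.68, SE 0.12, adjusted p = 0.026, or 0.0432 without the pairing). Ephb1 fell 1.83-fold, the netrin receptor gene Dcc 3.65-fold, the repellent gene Slit2 1.93-fold and Nrp2 1.8-fold. Those that rose were the netrin receptor gene Unc5b, Sema3c, Plxnd1 and Ntn4 (1.81-fold), the last with values of 2675.4, 4409.5 and 3611.7 in wild-type NSC and 5360.9, 6970.9 and 6719.2 in Nf1-null NSC. Groups overlapped for Slit2 and not for Epha4, Ephb1 or Dcc.

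The remaining genes with the largest changes belonged to no list that described them. Clic5, a chloride channel protein linked to the actin cortex, was at 23.9, 116.5 and 205.4 in wild-type NSC and 250.4, 3115.1 and 1222.1 in Nf1-null NSC. Its 11.7-fold rise rests on very dim wild-type arrays, on which the pseudocount weighs (log2 difference 3.54, SE 0.41, adjusted p = 0.0336, or 0.117 without the pairing). The means over the 6 NSC arrays of Clic5, at 8.17, Itga8, at 8.68, Ptpre, at 9.03, Tubb3, at 9.10, and Fam155a, at 9.13, were likewise under the brightness limit. Tm4sf1, a small membrane protein of migrating cells, rose 6.07-fold, with values of 452.8, 350.0 and 239.3 in wild-type NSC and 2053.0, 4245.0 and 979.4 in Nf1-null NSC. Kank1, which organises actin at adhesions, fell 4.69-fold, the muscle-type kinase gene Srpk3 5.37-fold and the phosphatase gene Ptpre 5.45-fold. Gdap1, a protein of the outer mitochondrial membrane, was at 2805.7, 2577.3 and 2921.8 in wild-type NSC and 1153.3, 813.5 and 944.5 in Nf1-null NSC, with no overlap, and fell 2.88-fold (log2 difference -1.52, SE 0.13, adjusted p = 0.0336, or 0.0432 without the pairing). Fam155a, which encodes a subunit of the Nalcn channel complex, fell 3.27-fold, and Fam184a 2.39-fold.

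Of the 127 named genes that passed, 17 also passed without the pairing. Those higher were Akap12, Gap43, Plvap, Egr3, Tubb6, Pf4, Itga8, Klf10 and Camk2b. Those lower were Plppr1, Scn8a, Epha4, Gdap1, Stmn3, Snap91, Id4 and Col27a1.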

How the data were processed

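Each sample was 1 Affymetrix array, and per the labels' protocols 100 ng total RNA went into the biotin-labelled cRNA. The authors deposited a linear intensity for each of 45101 probe sets. The summarising tool was not given in the sources used here. The mean without the lowest and highest 2% was equal on every array, so a difference in total RNA per sample is set aside.

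Control probe sets (64) and those with several gene symbols (932) or none (9160) were left out, and 34945 had 1 symbol. Of 18193 genes, 9010 had several probe sets. Values became log2(value + 1). The limit of 9.27 was the unrounded median, and exactly 9.27 would keep 9093 genes.

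The 6 NSC arrays were fitted with limma 3.58.1 (R 4.3.3), with group and replicate number as terms, 2 residual and 3.12 prior degrees of freedom and no mean-variance trend, and two-sided p-values were adjusted by Benjamini-Hochberg over the 9097 genes. Errors of differences are moderated standard errors. The fit was also run on simulated arrays with a pair effect built in, which assumes the pairing and so cannot test it. The pairing comes from the data: same-numbered deviations correlated above 0.1 in each pair of the brighter genes, and at 0.13, 0.055 and 0.17 over all genes. Deviations sum to 0 within a group, so the negative values of unequal numbers follow in part from the positive ones. Without the pairing adjusted p-values are those of the same fit with no replicate term.

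The 51 gene lists (1487 of 1583 genes measured, 938 brighter) and the comparison itself were chosen with earlier results of these data known, so list counts and medians describe and have no test. Named genes were Nf1, the 15 largest rises and falls whose groups did not overlap, the 8 with the largest moderated t each way, and up to 5 with the smallest adjusted p from lists with 3 or more called members, without clone names, receptor families of smell or small RNAs. Defining cell type markers were added. Other genes given with values were chosen after these were seen, among them Dusp6, Spred2, Etv5, Fosl2, Mki67, Gmnn, Tk1, Kit, Pdgfra, Dll3, Notch2, Emx2, Eif4ebp1, Irs2, Hprt, Hmga2, Omg, Nrp2 and genes that did not pass.

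Alternatives were no block, a random block, all 9 arrays, other brightness limits, a trend, robust moderation, quantile or median scaling, a pseudocount of 16, the mean of probe sets, an adjusted p under 0.01 and arrays or pairs left out. Promoters came from RefSeq (GRCm38.p6), matched by Entrez gene identifier. Figures were drawn with matplotlib 3.10.9.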

Additional observations from a re-analysis of the deposited data

How the results depend on the processing

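The number of called genes, 754 with 460 higher and 294 lower, changed with most settings. Without the replicate block 51 genes passed (29 higher, 22 lower), and 398 (208 and 190) with all 9 arrays in that fit. A block for the NSC pairs in the 9 arrays gave 1249 (564 lower), and a random block 1725 (852 and 873). The brightest 25% of genes gave 426 (270 and 156) and a mean-variance trend 1180 (510 lower). All genes, the brightest 75%, the mean of all probe sets and an adjusted p under 0.01 gave 0 each, with 3111, 3533, 2501 and 3233 genes at an unadjusted p under 0.05. All genes with a trend and no block, chosen after seeing the data, also gave 0, with 3300. With a pair or an array left out the count ran from 0 to 1372, with 0 to 726 higher and 0 to 646 lower. It was 0 without pair 1, pair 3 or, with no block, any array but Nf1-null replicate 3, whose omission gave 159 (70 and 89). Quantile and median scaling gave 1010 and 1023, a pseudocount of 16 gave 799 and robust moderation 669. Nf1, at -0.90, passed with all 9 arrays, blocked or not (adjusted p = 0.0257 and 0.0285), and with a random block (0.0228), and ran from -1.10 to -0.65 with a pair or array left out, passing without pair 2 (-1.10). The median of the G1 cyclin list, 0.57, was 0.41 in the brightest 25%, 0.64 with median scaling, 0.43 to 0.61 without a pair, 0.39 to 0.62 without a wild-type array and 0.36 to 0.71 without an Nf1-null array. That of DNA replication, 1.19, was 1.07 to 1.25, 0.99 to 1.52 and 0.92 to 1.44 in the same order. Of the named genes Ebna1bp2 reversed, at -0.31 with the mean of its probe sets. The causes of these changes were not tested. With 3 pairs and 2 residual degrees of freedom, dim genes and small differences could not be resolved.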

Other observations

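Calls in several other signalling, matrix and stress lists can be read against the 8.29% called among all 9097 brighter genes. The lists are small, so a few calls can equal that share. Of 42 measured genes of the BMP and TGF-beta pathway 21 were brighter, with a median difference of -0.04, and Tgfbr2, a receptor for TGF-beta, alone rose (log2 difference 1.51, adjusted p = 0.0336 in the paired limma fit). Of 19 hedgehog pathway genes 9 were brighter and Cdon, a co-receptor, alone rose (1.23, adjusted p = 0.0445). Of 43 Wnt pathway genes 20 were brighter, with a median of -0.25, and none passed, with the receptor gene Fzd1 nearest at 1.78 (adjusted p = 0.0554). Of 28 target genes of Srf and Yap 18 were brighter, and the actin-binding calponin gene Cnn2 (1.41) and Crim1 (1.26) rose. Of 33 metalloproteinases and inhibitors 18 were brighter. Adamts1, which cleaves proteoglycans, rose (2.01, adjusted p = 0.0476), the inhibitor gene Timp4 fell by 0.97 on the log2 scale, and Adam12 and Adam19, at 2.07 and 2.14, did not pass (adjusted p = 0.052 and 0.0508). Chaperones, with 22 brighter genes of 25 and a median of 0.31, genes of the unfolded protein response, with 25 of 26 and 0.15, and interferon response genes, with 11 of 34 and 0.01, had no member that passed.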
